A study of Mus musculus with 12 samples.

Results

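The genes described here are the enzymes and transporters of glycolysis, the oxygen sensors that act through hypoxia-inducible factor (HIF), and known HIF target genes, measured by RNASeq in splenic T cells of sham and Ang II infused mice. They were chosen by name: 35 gene symbols were matched to Ensembl identifiers of the mouse GRCm38 annotation, and each matched 1 of the 49315 genes in the count table (Aldoa through 1 of its 2 annotated identifiers). All 35 passed the filter on low counts in every comparison, so all 35 were tested in each.

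The study asked how miR-214 in T cells shapes their response to hypertension. Male mice, 12 weeks old at the start, carried minipumps for 14 days that delivered either sham buffer or angiotensin II (Ang II, 490 ng/kg per day), a peptide that raises blood pressure. Wild-type mice (WT) and mice lacking miR-214 in every tissue (miR-214-/-) gave 4 groups: WT sham, WT Ang II, miR-214-/- sham and miR-214-/- Ang II. Each group held 3 mice, sequenced separately. The paper lists C57BL/6 mice, and names wild-type littermates in other experiments. It does not state which of these the WT mice of the RNASeq were. T cells were taken from the spleen by negative magnetic selection, which removes other cells with antibodies and can leave some of them behind, and in bulk RNA fewer cells of a type and less RNA per cell cannot be told apart. A backcross of the miR-214-/- mice to C57BL/6N is described for mice used in cell transfer, and the strain background of the mice used here is not given in the sources used here.

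Glycolysis splits glucose into pyruvate. A first set of enzymes spends ATP to phosphorylate and cleave the sugar, and a second set regains ATP and makes pyruvate, which is turned into lactate or passed to the mitochondria. Resting T cells use little glucose, and activated T cells raise transporters and glycolytic enzymes when they grow and divide. HIF-1α is hydroxylated and degraded while oxygen is present, and when it is stable it switches on most glycolytic genes together with genes of blood vessel growth and mitophagy. Maturing red cells carry their own forms of several enzymes, including the pyruvate kinase encoded by Pklr and the bisphosphoglycerate mutase encoded by Bpgm.

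Libraries held 21126874 to 29605988 counts. Markers of T cells were abundant in all 12 libraries, with summed levels of 3604 to 6222 CPM (counts scaled to the library totals, corrected by TMM factors), and none of the 12 markers was at 0. Markers of other cells moved with Ang II in WT. Of 17 red-cell precursor markers 12 rose, of 12 neutrophil markers 12 rose, of 6 basophil and mast cell markers 6 rose, of 8 platelet markers 4 rose, of 11 macrophage markers 1 rose and of 8 B cell markers 0 passed the test, while 10 of 12 T cell markers fell. All 14 genes of dividing cells rose in WT. Of all 16012 genes tested in WT, 11.7% rose and 7.06% fell. Under Ang II in miR-214-/- mice 0 genes of these lists passed in edgeR or DESeq2, with 5 red-cell precursor, 4 platelet and 1 B cell marker at an unadjusted p under 0.05. Poly(A) libraries do not capture mature microRNAs. Mir214 had 0 counts in all 12 libraries, WT included, and its host transcript Dnm3os had 1 count in all libraries together, so the genotype could not be checked from these counts. The labels name no batch.

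Per kilobase of exon, averaged over the 12 libraries, the most abundant members were Ldha (131 CPM per kb), Aldoa (125), Pkm (111), Gapdh (96.7) and Eno1 (89.8). Vegfa (0.278 to 0.828 CPM per kb over the libraries, 29 to 101 counts) and Aldoc (0.356 to 0.856 CPM per kb, 25 to 67 counts) were the least abundant. Among the oxygen sensors Hif1a reached 28.6 CPM per kb, Egln1 21.8, Vhl 9.23 and Egln3 4.75. Together the 35 genes took 0.403% to 0.460% of all counts in WT sham libraries and 0.468% to 0.517% in WT Ang II libraries. The same share was 0.413% to 0.440% in miR-214-/- sham and 0.463% to 0.484% in miR-214-/- Ang II. The shares under Ang II thus lay above those of all sham libraries of the same genotype, which describes the sum and was not tested.

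HIF binds DNA at a short core, searched for here as ACGTG or GCGTG on either strand in RefSeq promoter windows of GRCm38.p6 (250 bases before to 50 bases after a transcript start). Windows were found for 33 of the 35 members, and not for Bnip3l and Slc2a3. At least 1 core stood in a window of 28 of these 33 genes (84.8%), beside 46.7% of all 27025 genes with a window. Per window the share was 74% for the members and 43.8% for all genes. The median GC content of the windows was 62.5% for the members and 52.7% for all genes, and the core itself is rich in G and C. The windows of Hk2, Gapdh, Tpi1 and Ldha are printed 5′ to 3′ with each core in capitals, because Hk2, Gapdh and Tpi1 were higher under Ang II in both genotypes without overlap of the libraries, while Ldha was the most abundant member. Capitals in the window of Pklr, the member with the largest fold change, mark a match to the motif of GATA transcription factors.
Hk2 (chr6:82774405-82774704, minus strand): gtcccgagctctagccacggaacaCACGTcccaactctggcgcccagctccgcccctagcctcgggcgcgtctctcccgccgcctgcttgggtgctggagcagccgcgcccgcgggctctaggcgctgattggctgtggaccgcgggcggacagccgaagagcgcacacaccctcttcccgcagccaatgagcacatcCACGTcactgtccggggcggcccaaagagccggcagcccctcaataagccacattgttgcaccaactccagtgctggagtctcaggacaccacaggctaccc
Gapdh (chr6:125165724-125166023, minus strand): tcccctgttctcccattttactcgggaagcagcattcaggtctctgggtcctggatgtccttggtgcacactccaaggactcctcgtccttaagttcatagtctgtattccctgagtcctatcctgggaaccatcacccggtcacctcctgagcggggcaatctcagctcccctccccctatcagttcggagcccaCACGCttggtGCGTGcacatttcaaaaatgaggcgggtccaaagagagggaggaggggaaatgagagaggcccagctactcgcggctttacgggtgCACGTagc
Tpi1 (chr6:124814109-124814408, minus strand): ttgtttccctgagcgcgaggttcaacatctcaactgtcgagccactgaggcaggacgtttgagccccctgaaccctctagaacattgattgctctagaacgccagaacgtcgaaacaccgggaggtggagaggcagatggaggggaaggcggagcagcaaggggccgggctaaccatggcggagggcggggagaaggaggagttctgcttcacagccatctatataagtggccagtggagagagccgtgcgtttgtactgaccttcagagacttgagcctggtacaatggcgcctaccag
Ldha (chr7:46845554-46845853, plus strand): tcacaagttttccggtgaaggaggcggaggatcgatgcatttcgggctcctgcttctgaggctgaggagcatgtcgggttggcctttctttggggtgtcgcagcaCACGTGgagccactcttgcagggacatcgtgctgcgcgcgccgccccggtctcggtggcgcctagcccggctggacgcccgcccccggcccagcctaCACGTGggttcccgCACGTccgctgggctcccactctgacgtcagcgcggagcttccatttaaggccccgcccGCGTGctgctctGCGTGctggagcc
Pklr (chr3:89135892-89136191, plus strand): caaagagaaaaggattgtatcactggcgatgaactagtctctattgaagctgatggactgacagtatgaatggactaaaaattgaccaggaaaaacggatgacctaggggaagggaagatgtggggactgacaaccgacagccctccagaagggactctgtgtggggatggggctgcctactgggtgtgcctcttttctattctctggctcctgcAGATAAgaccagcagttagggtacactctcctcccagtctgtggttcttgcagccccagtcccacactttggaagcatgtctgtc

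The Ldha window held 7 matches to the core, counting both strands of the palindrome CACGTG, Gapdh 3, Hk2 2, and the windows of Tpi1 and Pklr 0. Of the 9 members that passed the test of Ang II in WT, 7 (77.8%) held it, and of the other 24 with a window, 21 (87.5%). The GATA letters (AGATAA or TGATAA, or either with G in place of the last A, on both strands, a motif chosen after the values were seen) stood in windows of 5 of these 9 genes (55.6%) and of 3 of the other 24 (12.5%), beside 33% of all genes. The 5 were Gapdh, Pfkm, Pklr, Slc16a1 and Vegfa. A gene with several windows was counted if any of them matched. Per window the GATA share was 43.8% for these 9 genes, 8.82% for the other 24 and 29.8% for all genes. The 9 genes had 16 windows and the other 24 had 34. The median GC content was 58.2% in the windows of the 9 and 64.8% in those of the other 24, and the GATA letters are rich in A and T. The part of GC content and of the number of windows in these shares was not tested. A match describes letters in a window and no binding was measured.

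In the WT libraries, which are bulk RNA, 9 of the 35 genes were higher under Ang II and 0 were lower. The test was edgeR's quasi-likelihood test (adjusted p under 0.05), by which 11.7% of all 16012 genes tested rose and 7.06% fell. The 9 genes were Hk2, Pfkm, Tpi1, Gapdh, Pklr, Slc16a1, Slc16a3, Vegfa and Mxi1. Of these, 6 also exceeded a log2 fold change of 1 (all but Tpi1, Gapdh and Mxi1), as did 7.01% of all genes tested in the upward direction. The median log2 fold change of the 35 genes was 0.11 beside -0.016 over all genes, and 22 of the 35 had a positive value. All Ang II libraries lay above all sham libraries in 11 of the 35, beside 19.1% of all genes, and wholly below them in 3, beside 22%. With a single library left out, which also leaves fewer libraries for the test, the count of 9 changed. It was 3 without WT sham replicate 1, 4 without sham replicate 2, 5 without sham replicate 3, 11 without Ang II replicate 1, 6 without Ang II replicate 2 and 2 without Ang II replicate 3, and Tpi1 and Slc16a3 were the members that passed in all 6 of these fits. DESeq2 passed 11, the same 9 with Hk1 and Pgk1, beside 22.1% of all genes with an adjusted p in it.

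**Figure D1:**
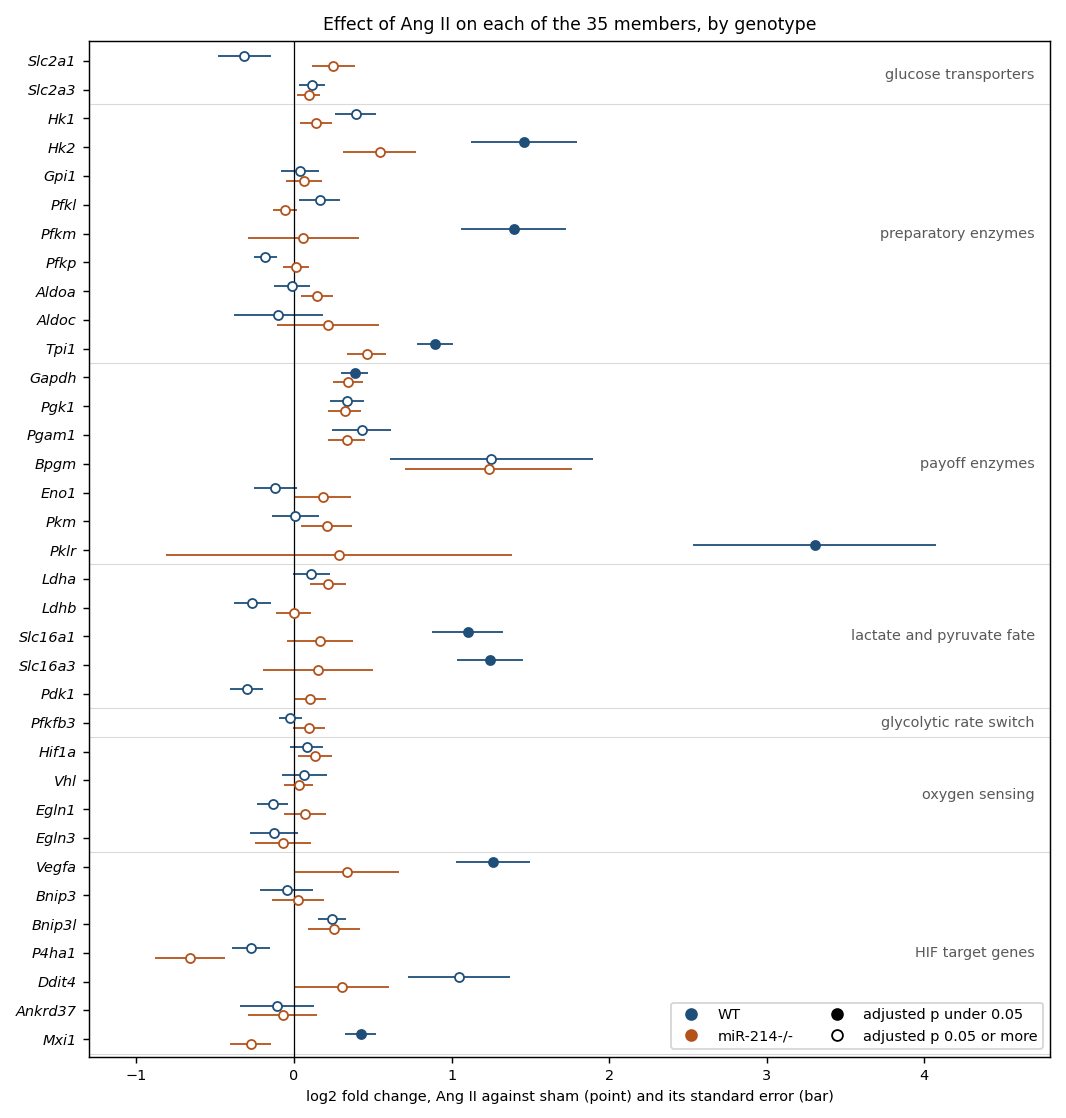
Effect of Ang II on each of the 35 members, ordered by role. The x axis is the log2 fold change of Ang II against sham, points are edgeR estimates, bars are their standard errors, blue is WT and orange miR-214-/- (3 mice per group), and filled points have an adjusted p under 0.05. The 9 filled points are all in WT and all to the right of 0, and Pklr lies farthest right at 3.30.

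In the miR-214-/- libraries 0 of the 35 genes passed the same test with edgeR, and 0 with DESeq2. Of all 15937 genes tested 0% rose and 0% fell in edgeR, while DESeq2 passed 277 genes (2.13% of those with an adjusted p). At an unadjusted p under 0.05 there were 5 members (4 with higher and 1 with lower values), beside 12.2% of all genes. The smallest adjusted p among the members was 0.286, for Tpi1. Their median log2 fold change was 0.14 beside 0.028 over all genes, 29 of the 35 had a positive value, and Ang II libraries lay wholly above sham libraries in 4 (Hk2, Tpi1, Gapdh and Pgk1), beside 8.86% of all genes. Whether the effect of Ang II differed between the genotypes was tested as an interaction, and 0 members passed in edgeR, beside 0% of 16770 genes with a larger and 0.00596% with a smaller effect in miR-214-/-. At an unadjusted p under 0.05 it gave 8 members, beside 14.8% of all genes, and DESeq2 passed 1 member, Mxi1, beside 3.22% of all genes with an adjusted p. Without miR-214-/- Ang II replicate 1, edgeR passed 2, Pklr and Pfkm. A gene past the threshold in WT alone was therefore not shown to respond differently in the 2 genotypes by the edgeR test.

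Values in each library are given below in the order of replicates 1, 2 and 3 of a group, in CPM, and fold changes are on the log2 scale with their standard error. The 95% intervals use a normal quantile and are narrower than the edgeR test with few libraries would give.

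Glucose enters T cells through the transporters encoded by Slc2a1 (GLUT1) and Slc2a3 (GLUT3), and neither passed the test in either genotype. Slc2a1 was at 40.1, 33.6 and 50.7 CPM in WT sham libraries and at 35.9, 28.2 and 34.2 CPM in WT Ang II libraries. In miR-214-/- libraries it was at 39.6, 31.3 and 31.9 CPM in sham and at 34.5, 42.8 and 44.7 CPM under Ang II. The groups overlapped in both genotypes, and the estimates had opposite signs, -0.32 ± 0.17 (SE; edgeR, adjusted p = 0.226) in WT with a 95% interval of -0.65 to 0.016, and 0.25 ± 0.14 (SE; edgeR, adjusted p = 0.492) in miR-214-/-. The difference between these effects was 0.59 ± 0.23 (SE; edgeR, adjusted p = 0.288). Slc2a3 ranged over 82.4 to 85.6 CPM in WT sham and over 82 to 98.5 CPM in WT Ang II, with a fold change of 0.11 ± 0.084 (SE; edgeR, adjusted p = 0.372).

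Of the 9 members in the first, ATP-spending stage, 3 rose in WT under Ang II (Hk2, Pfkm and Tpi1) and 0 fell. The shares over all genes tested in WT were 11.7% and 7.06%, and a stage of few genes was not tested as a set. Hexokinase 2, the inducible enzyme that traps glucose as glucose 6-phosphate, was at 11.1, 11.2 and 8.65 CPM in WT sham and at 43.3, 17.8 and 22.5 CPM in WT Ang II libraries. In miR-214-/- mice Hk2 was at 15.6, 9.76 and 17.3 CPM in sham and at 24, 18.6 and 19.6 CPM under Ang II. Every Ang II library exceeded every sham library of its genotype, and WT Ang II replicate 1 stood highest. Hk2 rose 2.75-fold in WT, a log2 fold change of 1.46 ± 0.34 (SE; edgeR, adjusted p = 0.0281). The WT value did not pass without sham replicate 1, sham replicate 2, sham replicate 3 or Ang II replicate 3 (log2 fold changes 1.51, 1.52, 1.34 and 1.58, edgeR adjusted p of 0.0604 to 0.0927), and was 0.98 without Ang II replicate 1, where it passed. The value in miR-214-/- was 0.55 ± 0.23 (SE; edgeR, adjusted p = 0.411). Hk1, the constitutive hexokinase, had 0.39 ± 0.13 (SE; edgeR, adjusted p = 0.0794) in WT and 0.14 ± 0.10 (SE; edgeR, adjusted p = 0.595) in miR-214-/-. The WT value of Hk1 passed with DESeq2 (adjusted p = 0.0338), with the replicate block (edgeR, adjusted p = 0.0342) and without WT Ang II replicate 1 (0.0311).

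Phosphofructokinase commits the sugar to glycolysis, and it has 3 isozymes, of which 1 passed in WT. The muscle form Pfkm was at 15.4, 17 and 16.2 CPM in WT sham and at 20.8, 55.3 and 50.1 CPM in WT Ang II libraries. It was at 19.5, 27.4 and 25.6 CPM in miR-214-/- sham and at 39.99, 15.6 and 19.4 CPM in miR-214-/- Ang II libraries. In WT the groups did not overlap and replicates 2 and 3 stood well above replicate 1, whereas in miR-214-/- mice replicate 1 alone stood above the sham libraries. The fold change was 1.39 ± 0.33 (SE; edgeR, adjusted p = 0.0312) in WT and 0.06 ± 0.35 (SE; edgeR, adjusted p = 0.959) in miR-214-/-, and the WT value did not pass without sham replicate 1, sham replicate 2, sham replicate 3, Ang II replicate 2 or Ang II replicate 3 (log2 fold changes 1.36, 1.43, 1.39, 1.15 and 1.25, edgeR adjusted p of 0.0768 to 0.107). The platelet form Pfkp had -0.18 ± 0.074 (SE; edgeR, adjusted p = 0.128) in WT, with every Ang II library below every sham library, and the liver form Pfkl had 0.16 ± 0.13 (SE; edgeR, adjusted p = 0.405).

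Triosephosphate isomerase, which interconverts both products of aldolase, gave the smallest p of the 35 genes in WT. Tpi1 was at 49.2, 46.6 and 60.9 CPM in WT sham libraries and at 89.2, 93.7 and 103 CPM in WT Ang II libraries. It was at 55.8, 62.4 and 54.7 CPM in miR-214-/- sham and at 93.1, 70.7 and 73 CPM in miR-214-/- Ang II libraries. The groups were apart in both genotypes. Tpi1 rose 1.86-fold in WT, a log2 fold change of 0.89 ± 0.11 (SE; edgeR, adjusted p = 0.00493), and the value in miR-214-/- was 0.46 ± 0.12 (SE; edgeR, adjusted p = 0.286), with a difference of -0.42 ± 0.18 (SE; edgeR, adjusted p = 0.314). The other members of this stage did not pass in WT, which were the isomerase Gpi1 (0.035 ± 0.12) and the aldolases Aldoa (-0.013 ± 0.11) and Aldoc (-0.10 ± 0.28), all as log2 fold changes with SE.

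In the second stage, which regains ATP, 2 of 7 members rose in WT, Gapdh and Pklr, and 0 fell. Over all genes tested 11.7% rose and 7.06% fell. Glyceraldehyde 3-phosphate dehydrogenase, often used as a reference gene, was at 336, 330.4 and 379.8 CPM in WT sham and at 477, 424 and 444 CPM in WT Ang II libraries. Gapdh in miR-214-/- mice was at 367, 332 and 362 CPM in sham and at 415, 449.9 and 477 CPM under Ang II. All Ang II libraries were above all sham libraries in both genotypes, by a log2 fold change of 0.39 ± 0.085 (SE; edgeR, adjusted p = 0.0246) in WT and of 0.34 ± 0.094 (SE; edgeR, adjusted p = 0.287) in miR-214-/-. The difference between them was -0.024 ± 0.12 (SE; edgeR, adjusted p = 0.939), with a 95% interval of -0.27 to 0.22. The WT value did not pass without sham replicate 1, sham replicate 2 or Ang II replicate 3 (log2 fold changes 0.36, 0.35 and 0.39, edgeR adjusted p of 0.0835 to 0.0869).

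Pgk1 and Pgam1, the next enzymes of the second stage, had positive estimates in both genotypes and did not pass in either with edgeR. Pgk1, phosphoglycerate kinase, was at 141, 132 and 163 CPM in WT sham and at 199, 162 and 181 CPM in WT Ang II libraries, and at 163, 134 and 147 CPM in miR-214-/- sham and at 166, 199 and 187 CPM in miR-214-/- Ang II libraries. It had 0.34 ± 0.11 (SE; edgeR, adjusted p = 0.072) in WT and 0.32 ± 0.10 (SE; edgeR, adjusted p = 0.326) in miR-214-/-, and the WT value passed with DESeq2 (adjusted p = 0.036) and with library-size scaling (edgeR, adjusted p = 0.0376). Pgam1, phosphoglycerate mutase, was at 31.3, 34.2 and 43.4 CPM in WT sham and at 57.9, 37.8 and 48.3 CPM in WT Ang II libraries, and at 40.8, 34.6 and 36.6 CPM in miR-214-/- sham and at 39.99, 51.6 and 49.3 CPM in miR-214-/- Ang II libraries. Its groups overlapped in both genotypes, and its estimates were 0.43 ± 0.19 (SE; edgeR, adjusted p = 0.149) in WT and 0.34 ± 0.12 (SE; edgeR, adjusted p = 0.352) in miR-214-/-. Enolase 1, which makes phosphoenolpyruvate, had -0.12 ± 0.14 (SE; edgeR, adjusted p = 0.567) in WT and 0.19 ± 0.18 (SE; edgeR, adjusted p = 0.693) in miR-214-/-. The annotation names pseudogenes of Gapdh, Pgk1, Pgam1, Aldoa and Ldha, and reads that fit several places were not counted, so the levels of these genes are uncertain.

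Pyruvate kinase ends the pathway and its main T cell form, Pkm, did not pass. Pkm was at 518, 500.3 and 630.2 CPM in WT sham libraries and at 656, 469 and 506 CPM in WT Ang II libraries. In miR-214-/- it was at 589, 455 and 517 CPM in sham libraries and at 483, 687 and 631 CPM in Ang II libraries. The groups overlapped in both genotypes, with a fold change of 0.0091 ± 0.15 (SE; edgeR, adjusted p = 0.971) in WT and a 95% interval of -0.29 to 0.31.

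Pklr, the form made in liver and red cells, had the largest fold change of the 35 genes. It was at 6.41, 18.8 and 4.55 CPM in WT sham and at 25.2, 135 and 132 CPM in WT Ang II libraries. Among miR-214-/- mice it was at 8.06, 46.5 and 40.4 CPM in sham and at 99.7, 7.13 and 7.38 CPM under Ang II. The WT groups did not overlap, replicate 1 being the lowest Ang II library, and in miR-214-/- mice replicate 1 was far above the other two Ang II libraries, which lay below every sham library. Pklr rose 9.88-fold in WT, a log2 fold change of 3.30 ± 0.77 (SE; edgeR, adjusted p = 0.0289) that was 4.17 without sham replicate 2, beside 0.29 ± 1.10 (SE; edgeR, adjusted p = 0.933) in miR-214-/-. The WT value did not pass without sham replicate 1, sham replicate 3, Ang II replicate 2 or Ang II replicate 3 (log2 fold changes 3.06, 2.96, 3.00 and 3.02, edgeR adjusted p of 0.0618 to 0.102), and in the fit over all 12 libraries its adjusted p was 0.0614 with edgeR.

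**Figure D2:**
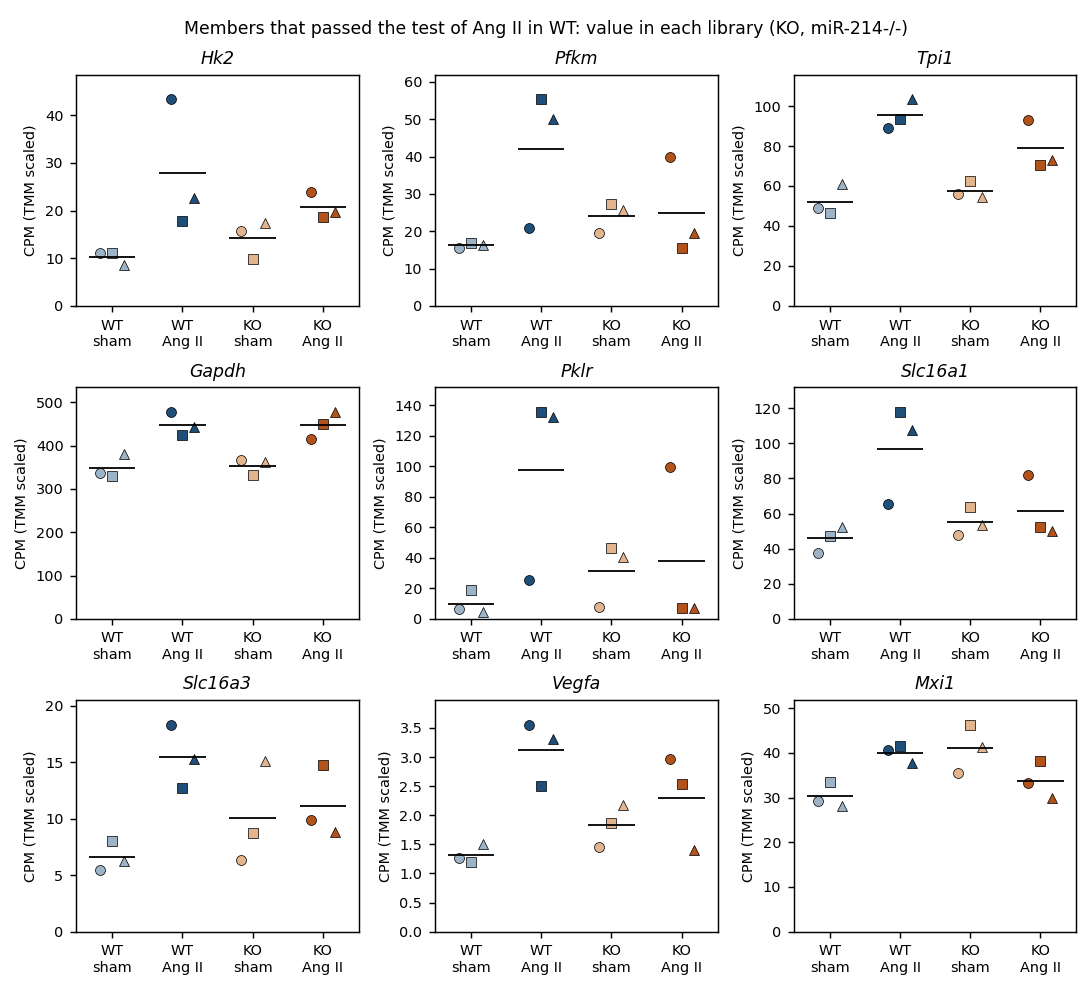
Level of each member that passed the test of Ang II in WT, in CPM, in every library. Points are libraries (circle, square and triangle for replicates 1, 2 and 3) and lines are group means of 3 mice. Tpi1 and Gapdh are higher under Ang II in both genotypes, whereas Pfkm, Pklr and Slc16a1 are high in WT Ang II replicates 2 and 3 and in miR-214-/- Ang II replicate 1.

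Bpgm, which makes the 2,3-bisphosphoglycerate that lowers the oxygen affinity of haemoglobin, was high in 1 Ang II library of each genotype. It was at 32.3, 27.2 and 30.7 CPM in WT sham and at 152, 36.5 and 23.1 CPM in WT Ang II libraries, and at 28.8, 23.6 and 21.1 CPM in miR-214-/- sham and at 27.8, 113 and 31.4 CPM in miR-214-/- Ang II libraries. Its fold change was 1.25 ± 0.65 (SE; edgeR, adjusted p = 0.21) in WT and 1.24 ± 0.53 (SE; edgeR, adjusted p = 0.413) in miR-214-/-, and the groups overlapped in both.

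The 2 red-cell forms peaked in different libraries. The summed level of 4 globin genes, made late in red-cell maturation, was 450.3, 256 and 419 CPM in WT sham and 4756, 1264 and 450.2 CPM in WT Ang II libraries. It was 235, 275 and 267 CPM in miR-214-/- sham and 255, 4041 and 453 CPM in miR-214-/- Ang II libraries. WT Ang II replicate 1 and miR-214-/- Ang II replicate 2, the libraries with the most Bpgm, also had the most globin. The other 13 red-cell precursor markers summed to 92.4, 137 and 164 CPM in WT sham and to 1329, 2051 and 1379.6 CPM in WT Ang II. They summed to 90.7, 543 and 441 CPM in miR-214-/- sham and to 893, 834 and 193 CPM in miR-214-/- Ang II. Pklr was low in all libraries where these markers were low, and it was also low in WT Ang II replicate 1 and miR-214-/- Ang II replicate 2, where they were high. The part of red-cell precursors in the values of Pklr and Bpgm was not tested.

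**Figure D3:**
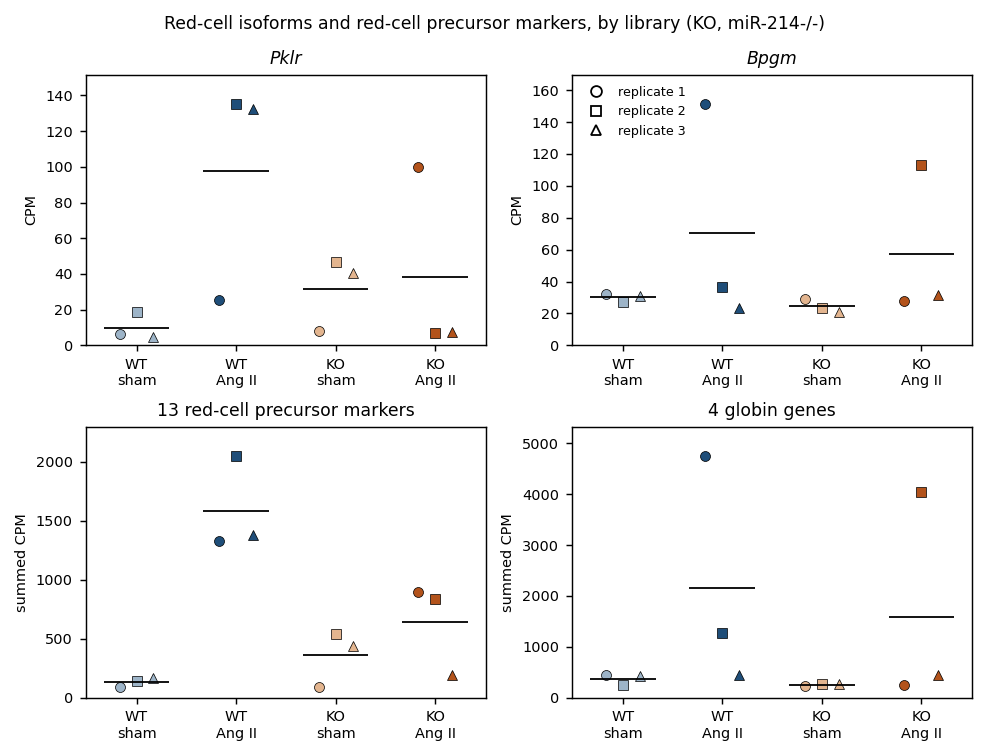
Pklr and Bpgm beside red-cell markers, in CPM for single genes and summed CPM for marker lists, in every library (circle, square and triangle for replicates 1, 2 and 3, lines for group means). Bpgm and the 4 globin genes peak in WT Ang II replicate 1 and miR-214-/- Ang II replicate 2, and Pklr peaks in WT Ang II replicates 2 and 3 and miR-214-/- Ang II replicate 1.

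Of the 5 genes that decide the fate of pyruvate, the lactate carriers Slc16a1 and Slc16a3 rose in WT and 0 fell. Over all genes tested 11.7% rose and 7.06% fell. Slc16a1 (MCT1) was at 37.8, 47.4 and 52.3 CPM in WT sham and at 65.2, 118 and 108 CPM in WT Ang II libraries, without overlap. It was at 47.9, 63.8 and 53.6 CPM in miR-214-/- sham and at 81.9, 52.3 and 49.9 CPM in miR-214-/- Ang II libraries, where replicate 1 alone was above the sham libraries. The fold change was 1.10 ± 0.22 (SE; edgeR, adjusted p = 0.0192) in WT and 0.16 ± 0.21 (SE; edgeR, adjusted p = 0.769) in miR-214-/-, with a difference of -0.93 ± 0.34 (SE; edgeR, adjusted p = 0.267). The WT value did not pass without sham replicate 1, sham replicate 2, sham replicate 3 or Ang II replicate 3 (log2 fold changes 0.98, 1.13, 1.20 and 1.01, edgeR adjusted p of 0.0534 to 0.074).

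Slc16a3 (MCT4), the carrier that exports lactate from highly glycolytic cells, was at 5.5, 8.02 and 6.28 CPM in WT sham and at 18.3, 12.7 and 15.2 CPM in WT Ang II libraries. It was at 6.36, 8.69 and 15.1 CPM in miR-214-/- sham and at 9.91, 14.7 and 8.78 CPM in miR-214-/- Ang II libraries. The WT groups were apart and the miR-214-/- groups overlapped, since sham replicate 3 was the highest of that genotype. Slc16a3 rose 2.37-fold in WT, a log2 fold change of 1.25 ± 0.21 (SE; edgeR, adjusted p = 0.0107) that passed without any 1 library, and had 0.15 ± 0.35 (SE; edgeR, adjusted p = 0.878) in miR-214-/-.

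Lactate dehydrogenase A, which reduces pyruvate to lactate, was the most abundant member per kilobase and did not pass. Ldha was at 376, 385 and 499 CPM in WT sham and at 451, 424 and 462 CPM in WT Ang II libraries. Ldha in miR-214-/- mice was at 432, 372 and 399 CPM in sham and at 416, 518 and 457 CPM under Ang II. Groups overlapped in both genotypes, with 0.11 ± 0.12 (SE; edgeR, adjusted p = 0.545) in WT and a 95% interval of -0.12 to 0.34. Ldhb, the form that favours pyruvate, and Pdk1, the kinase that closes mitochondrial pyruvate entry, had WT Ang II values wholly below the WT sham values, with -0.26 ± 0.12 (SE; edgeR, adjusted p = 0.156) and -0.30 ± 0.10 (SE; edgeR, adjusted p = 0.0882). Pdk1 passed in WT without sham replicate 3 (-0.41, edgeR, adjusted p = 0.032). In miR-214-/- mice the fold changes were -0.0027 ± 0.11 (SE; edgeR, adjusted p = 0.994) for Ldhb and 0.10 ± 0.10 (SE; edgeR, adjusted p = 0.712) for Pdk1.

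The glycolytic switch Pfkfb3, whose product makes the activator of phosphofructokinase, was at 64.2, 59 and 68.3 CPM in WT sham libraries and at 64.4, 60.8 and 60.4 CPM in WT Ang II libraries. It was at 63.9, 54.4 and 56.5 CPM in miR-214-/- sham and at 57.4, 58.9 and 69.6 CPM in miR-214-/- Ang II libraries. Groups overlapped, and the WT fold change of -0.023 ± 0.075 (SE; edgeR, adjusted p = 0.854) had a 95% interval of -0.17 to 0.12.

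Among the 4 oxygen sensing genes 0 passed in either genotype with edgeR. Hif1a, the subunit that oxygen destabilises, was at 174, 136 and 174 CPM in WT sham and at 159, 175 and 170.1 CPM in WT Ang II libraries. Hif1a in miR-214-/- mice was at 154, 178 and 162 CPM in sham and at 179, 158 and 202 CPM under Ang II. Groups overlapped in both, with 0.08 ± 0.10 (SE; edgeR, adjusted p = 0.618) in WT (95% interval -0.12 to 0.28) and 0.13 ± 0.11 (SE; edgeR, adjusted p = 0.642) in miR-214-/-. HIF-1α is controlled mainly at the protein level, which RNASeq does not measure. The WT log2 fold changes of the hydroxylases were -0.14 ± 0.10 for Egln1 and -0.13 ± 0.15 for Egln3, and that of Vhl, which marks hydroxylated HIF-1α for degradation, was 0.065 ± 0.14 (SE).

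Of the 7 HIF target genes outside glycolysis, Vegfa and Mxi1 rose in WT and 0 fell. Over all genes tested 11.7% rose and 7.06% fell. Vegfa, the vascular growth factor, was the least abundant member, at 1.27, 1.19 and 1.5 CPM in WT sham and at 3.55, 2.5 and 3.3 CPM in WT Ang II libraries. It was at 1.45, 1.86 and 2.18 CPM in miR-214-/- sham and at 2.96, 2.53 and 1.4 CPM in miR-214-/- Ang II libraries. The WT groups were apart, and the miR-214-/- groups overlapped through Ang II replicate 3. Vegfa rose 2.4-fold in WT, a log2 fold change of 1.26 ± 0.24 (SE; edgeR, adjusted p = 0.015) beside 0.33 ± 0.33 (SE; edgeR, adjusted p = 0.701) in miR-214-/-. The WT value did not pass without sham replicate 1, sham replicate 2 or Ang II replicate 3 (log2 fold changes 1.23, 1.19 and 1.21, edgeR adjusted p of 0.054 to 0.0649).

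Mxi1, an antagonist of Myc, had the smallest p for the interaction among the 35 genes. It was at 29.3, 33.5 and 28 CPM in WT sham and at 40.7, 41.5 and 37.8 CPM in WT Ang II libraries. Mxi1 in miR-214-/- mice was at 35.6, 46.2 and 41.3 CPM in sham and at 33.2, 38.2 and 29.9 CPM under Ang II. Values were higher under Ang II in all WT libraries, while in miR-214-/- mice the group mean was lower under Ang II and the groups overlapped. The fold change was 0.42 ± 0.10 (SE; edgeR, adjusted p = 0.0282) in WT and -0.28 ± 0.13 (SE; edgeR, adjusted p = 0.448) in miR-214-/-, and the interaction was -0.68 ± 0.17 (SE; edgeR, adjusted p = 0.213). The WT value did not pass without sham replicate 1, sham replicate 3, Ang II replicate 2 or Ang II replicate 3 (log2 fold changes 0.40, 0.36, 0.39 and 0.46, edgeR adjusted p of 0.0739 to 0.0918). DESeq2 gave the interaction an adjusted p of 0.0139. The same WT sham libraries enter the WT effect, the interaction and the comparison of the sham groups, where Mxi1 had 0.43 ± 0.12 (SE; edgeR, adjusted p = 0.701).

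The other HIF targets did not pass in WT with edgeR. The stress gene Ddit4, an inhibitor of mTORC1, ranged over 149 to 269 CPM in WT Ang II and, wholly below, over 63.3 to 129 CPM in WT sham libraries, with 1.05 ± 0.32 (SE; edgeR, adjusted p = 0.0628). It passed with no filter on low counts (edgeR, adjusted p = 0.0243), with the replicate block (0.0107) and without WT Ang II replicate 1 (0.044). Bnip3l, a mitophagy receptor that also clears mitochondria from maturing red cells, lay at 139 to 143 CPM in WT sham and at 151 to 184 CPM in WT Ang II, with 0.24 ± 0.087 (SE; edgeR, adjusted p = 0.0977). P4ha1, a collagen prolyl hydroxylase subunit, was at 64.3, 81 and 89.4 CPM in WT sham and at 64.5, 66.9 and 59.8 CPM in WT Ang II libraries, which overlapped, and at 86.5, 75 and 112 CPM in miR-214-/- sham and at 40.3, 63.9 and 68.6 CPM in miR-214-/- Ang II libraries. P4ha1 had negative estimates in both genotypes, -0.27 ± 0.12 (SE; edgeR, adjusted p = 0.147) in WT and -0.66 ± 0.22 (SE; edgeR, adjusted p = 0.335) in miR-214-/-, and in the latter every Ang II library lay below every sham library, as in 10.5% of all genes. Without WT sham replicate 1 its WT value passed (-0.40, edgeR, adjusted p = 0.0439). Bnip3, a mitophagy receptor, and Ankrd37 had WT log2 fold changes of -0.047 ± 0.17 and -0.11 ± 0.23 (SE).

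The genotypes were also compared at a fixed treatment, which asks whether loss of miR-214 alone moves these genes. Between the sham groups 0 of 35 members passed in edgeR, beside 0.00628% of 15913 genes tested that were higher and 0.0189% that were lower in miR-214-/-. At an unadjusted p under 0.05 there were 3, beside 6.67% of all genes, and DESeq2 passed 1 member beside 0.603% of all genes with an adjusted p. That member was Pfkm, with a log2 fold change of 0.58 and an adjusted p of 0.0487. In edgeR Pfkm had 0.57 ± 0.14 (SE; edgeR, adjusted p = 0.701). Under Ang II 0 members passed in DESeq2, beside 0.224% of all genes with an adjusted p. In edgeR 0 members passed as well, beside 0% higher and 0% lower of 16215 genes. At an unadjusted p under 0.05 there were 2, Pdk1 and Ldhb, beside 8.56% of all genes. The smallest p was that of Pdk1, which was at 98.6, 109 and 108 CPM in WT and at 135, 143 and 135 CPM in miR-214-/- Ang II libraries, a difference of 0.39 ± 0.072 (SE; edgeR, adjusted p = 0.569).

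Several members had similar estimates in both genotypes, and a fit of Ang II over both genotypes was added after these values were seen. With genotype as a second term and 12 libraries, 6 members passed upward and 1 downward in edgeR, beside 8.16% and 7.72% of 16770 genes tested. The 6 were Hk2 (0.99 ± 0.25 (SE; edgeR, adjusted p = 0.0242)), Tpi1 (0.66 ± 0.11 (SE; edgeR, adjusted p = 0.00635)), Gapdh (0.35 ± 0.06 (SE; edgeR, adjusted p = 0.00725)), Pgk1 (0.31 ± 0.076 (SE; edgeR, adjusted p = 0.0201)), Pgam1 (0.37 ± 0.11 (SE; edgeR, adjusted p = 0.0487)) and Vegfa (0.78 ± 0.24 (SE; edgeR, adjusted p = 0.0449)). P4ha1 passed downward, with -0.48 ± 0.15 (SE; edgeR, adjusted p = 0.046). Of the fits that left out a single library, all passed Tpi1 and Gapdh. Vegfa passed only in those without miR-214-/- sham replicate 3 or miR-214-/- Ang II replicate 3. P4ha1 passed only without WT sham replicate 1 or miR-214-/- Ang II replicate 3. Pgam1 passed only without WT sham replicate 3, WT Ang II replicate 2 or miR-214-/- Ang II replicate 1. Without WT sham replicate 2 the count of 7 was 2, without WT sham replicate 1, WT sham replicate 3, WT Ang II replicate 1, WT Ang II replicate 3 or miR-214-/- sham replicate 1 it was 4, and it was at most 7 without any single library. In 3 members, Hk2, Tpi1 and Gapdh, every Ang II library was above every sham library in both genotypes, beside 3.82% of the 15622 genes tested in both.

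Where an enzyme has several isozymes, their shares of the summed level per kilobase show which form made up the pool. Pkm gave 97.2% ± 2.35 (SD, n = 3) of pyruvate kinase in WT sham and 78.3% ± 14 in WT Ang II, so that the mean share of Pklr was 2.83% and 21.7%, while in miR-214-/- mice it was 8.82% ± 6.02 in sham and 9.18% ± 13 under Ang II. Pfkm gave 16.6% ± 1.65 of phosphofructokinase in WT sham and 33.3% ± 10.6 in WT Ang II, beside 23.5% ± 4.01 and 23.6% ± 9.34 in miR-214-/-. Ldhb gave 10.5% ± 1.35 of lactate dehydrogenase in WT sham and 8.24% ± 0.319 in WT Ang II, and 10.7% ± 0.426 and 9.34% ± 0.674 in miR-214-/-, without overlap of treatments in either genotype. Hk2 gave 7.18% ± 1.79 of the sum of Hk1 and Hk2 in WT sham and 13.9% ± 7.44 in WT Ang II, with overlap. In miR-214-/- mice Hk2 gave 9.36% ± 2.37 and 12.1% ± 0.274, without overlap. Hk3 was not in this sum. Its mean was 11.1 CPM in WT sham and 40.1 CPM in WT Ang II, beside 10.3 and 27.9 CPM for Hk2. With 3 libraries against 3 a two-sided exact permutation test cannot go below 0.1, and over the 24 tests of shares the smallest adjusted p was 0.267, so no share passed.

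**Figure D4:**
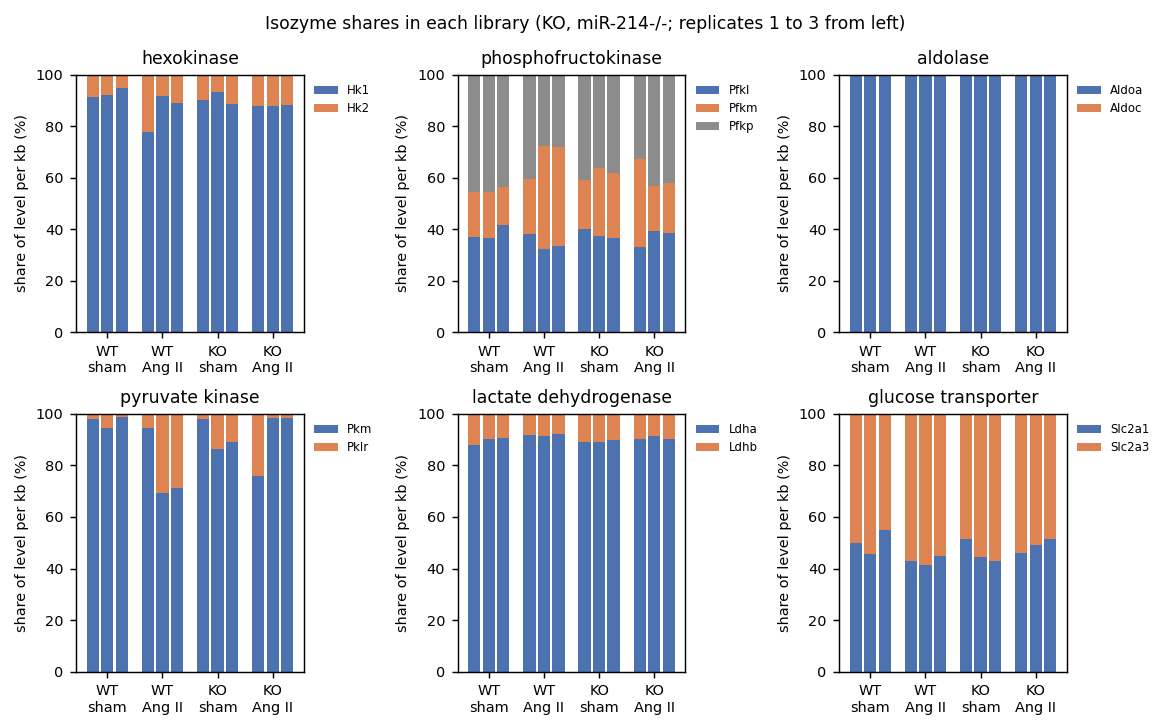
Share of each isozyme in the summed level per kilobase of its enzyme or transporter, in percent, one bar per library. Bars of a group are replicates 1 to 3 from the left. Pklr and Pfkm take larger shares in WT Ang II replicates 2 and 3 and in miR-214-/- Ang II replicate 1, and Aldoa takes nearly all of aldolase in every library.

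The 3 libraries with the most Pfkm, Pklr and Slc16a1 were among the 4 with the most mRNA of dividing cells. The 14 genes of dividing cells summed to 621, 743 and 773 CPM in WT sham, 2007, 2479.7 and 2487 CPM in WT Ang II, 832, 1139.7 and 1206 CPM in miR-214-/- sham and 2005, 1067 and 1119 CPM in miR-214-/- Ang II libraries. The neutrophil markers summed to 237, 254 and 205 CPM in WT sham and 3535, 1156 and 1610.2 CPM in WT Ang II, and to 662, 236 and 1002 CPM in miR-214-/- sham and 1192, 3270.4 and 585 CPM in miR-214-/- Ang II. Replicate 1 was the highest WT Ang II library for these markers and for Hk2, Slc16a3 and Vegfa. Among miR-214-/- Ang II libraries replicate 2 had the most neutrophil mRNA and Slc16a3, but the least Hk2, and Vegfa was highest in replicate 1. Replicate 3 was the highest miR-214-/- sham library for the markers and for Hk2, Slc16a3 and Vegfa. Among WT sham libraries replicate 2 was highest for the markers, Hk2 and Slc16a3, and replicate 3 for Vegfa. T cell markers summed to 5275, 5689.8 and 6222 CPM in WT sham and 4322, 4034 and 3604 CPM in WT Ang II. The part of other cells or of cell division in the 9 genes that rose was not tested.

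Genes of the neighbouring pathways were counted from fixed lists, which were chosen with earlier results of these data known. Of all 16012 genes tested in WT, 11.7% rose and 7.06% fell. The pentose phosphate pathway, which branches from glucose 6-phosphate and makes NADPH and ribose, had 6 of 7 genes higher and 0 lower in WT by edgeR, with a median log2 fold change of 0.69. Transketolase Tkt was at 170.5, 196 and 204 CPM in WT sham and at 307, 313 and 328 CPM in WT Ang II libraries (0.76 ± 0.083 (SE; edgeR, adjusted p = 0.00303)). Transaldolase Taldo1 had 0.64 ± 0.071 (SE; edgeR, adjusted p = 0.00312) and G6pdx, which encodes the first enzyme of the pathway, 0.89 ± 0.14 (SE; edgeR, adjusted p = 0.00836). For miR-214-/- mice 0 of 7 passed in edgeR, 1 in DESeq2 and 2 at an unadjusted p under 0.05, with a median of 0.27.

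Of 12 tested genes for further isozymes and transporters 4 rose and 1 fell in WT, beside 11.7% and 7.06% of all genes tested. Slc2a4, the insulin-responsive transporter, had 1, 2 and 2 counts in WT sham and 53, 62 and 26 counts in WT Ang II libraries (edgeR, adjusted p = 0.00243). Hk3, a hexokinase of white blood cells that include neutrophils, had 1.87 ± 0.37 (SE; edgeR, adjusted p = 0.0174) and Slc2a6 had 0.996 ± 0.19 (SE; edgeR, adjusted p = 0.0166). Of 12 genes for fructose bisphosphate and glycogen, Pygl (glycogen phosphorylase, 2.17 ± 0.37 (SE; edgeR, adjusted p = 0.0114)) and Pgm2 (0.53 ± 0.11 (SE; edgeR, adjusted p = 0.0193)) rose, and Tigar, which lowers fructose 2,6-bisphosphate, fell (-0.53 ± 0.13 (SE; edgeR, adjusted p = 0.0318)). Of 11 genes for the entry of pyruvate into mitochondria, Pdk3 (0.54 ± 0.10 (SE; edgeR, adjusted p = 0.0169)) and Dld (0.36 ± 0.091 (SE; edgeR, adjusted p = 0.0372)) rose and 0 fell.

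Further genes of oxygen sensing and HIF response mostly did not pass in WT, where 11.7% of all genes tested rose and 7.06% fell. Of 12 oxygen sensing genes 1 fell, the coactivator Crebbp (-0.46 ± 0.08 (SE; edgeR, adjusted p = 0.0117)), and 0 rose. Of 14 other HIF target genes tested, Ak4, a mitochondrial adenylate kinase, rose (1.49 ± 0.31 (SE; edgeR, adjusted p = 0.0206)) and Kdm3a, a histone demethylase, fell (-0.30 ± 0.073 (SE; edgeR, adjusted p = 0.0328)). Both lists had 0 genes past the threshold in miR-214-/- mice with edgeR, while DESeq2 passed 1 of each and 2 of each had an unadjusted p under 0.05. The study's sources do not state the strand setting of the counting, and exons of Tpi1, Gapdh, Pfkm, Pklr and Mxi1 overlap other annotated genes, so their counts may include reads of those neighbours.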

How the data were processed

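RNASeq was done on splenic T cells of 12 mice, 3 in each of 4 groups. The authors enriched poly(A) RNA, sequenced paired reads, trimmed them, mapped them to GRCm38 with STAR and counted unique reads in exons with featureCounts (Subread 1.5.2). The raw read counts per gene were deposited without normalization, and the annotation release and strand setting are not given in the sources used here. Groups were taken from the labels. Of 49315 identifiers 49056 matched the annotation, and 0 of 12 pairs of libraries within a group were identical. Totals of 21126874 to 29605988 counts left genes such as Vegfa with few counts.

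Counts were analysed with edgeR 4.0.16 in R 4.3.3 (filterByExpr on the groups compared, TMM, quasi-likelihood test, Benjamini-Hochberg adjustment over all genes tested), first checked on simulated data. A gene passed at an adjusted p under 0.05. CPM used TMM-scaled library sizes, and levels per kilobase used the merged exon length. Intervals called 95% are 1.96 standard errors on either side, a normal quantile that makes them too narrow for few libraries. Isozyme shares were compared by exact permutation tests. Alternatives were DESeq2 1.42.0, RLE and library-size scaling, no filter, at least 10 counts in every library, a fit over all libraries, the adjusted-deviance fit, a replicate block, shares without length, and each library left out. Figures were drawn with matplotlib 3.10.9 in Python 3.11.15.

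The members and lists were chosen with earlier results of these data known. Values in every library are given for members past the threshold in any of the 5 planned comparisons (up to 12), for Slc2a1, Hk2, Ldha, Pkm, Hif1a, Vegfa and Pfkfb3, and for members whose groups did not overlap in both genotypes. Genes of other lists are named where they passed, up to 3 a list by smallest p. Bpgm, Pgk1, Pgam1, P4ha1, Ddit4 and Pdk1 are given more room after their values were seen. Each mouse is a replicate.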

Additional observations from a re-analysis of the deposited data

How the results depend on the processing

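The 9 members that passed in WT were shared by every alternative fitted to all 6 WT libraries or more, except the fit over 12 libraries, which passed 8, and the counts lay between 8 and 11. DESeq2 passed 1 member between the sham groups and 1 for the interaction, where edgeR passed 0. Leaving out each library gave 2 to 11 members in WT, 0 to 2 for the interaction (Pfkm and Pklr without miR-214-/- Ang II replicate 1) and 2 to 7 over both genotypes. The replicate number was tried as a block, although the labels do not say what it marks. Deviations from the group mean of log CPM in same-numbered sham and Ang II libraries correlated at 0.1985, 0.1105 and -0.137 in WT. In miR-214-/- these deviations correlated at -0.5603, -0.2318 and -0.3675. With the replicate block 11 members passed in WT, and Pkm in WT (-0.000905), Pfkm (-0.061) and Pklr (-1.06) in miR-214-/- changed sign. Pfkfb3 in WT changed sign with library-size scaling (0.020) and no filter (0.000314), and Pkm in the fit over 12 libraries (-0.015). None of these passed a test, and the cause was not tested. Signs also changed when single libraries were left out, with log2 ranges in WT of -0.15 to 0.11 for Pkm, -0.027 to 0.13 for Hif1a and -0.075 to 0.021 for Pfkfb3. In miR-214-/- the ranges were -0.47 to 0.30 for Pfkm, -2.12 to 0.76 for Pklr, -0.11 to 0.29 for Slc16a1, -0.11 to 0.57 for Slc16a3 and -0.0017 to 0.16 for Pfkfb3. For the interaction they were -0.094 to 0.028 for Gapdh, -0.020 to 0.20 for Ldha and -0.027 to 0.18 for Hif1a. Shares, in percentage points, ranged from -4.54 to 2.43 for Hk2 between genotypes under Ang II, from -5.17 to 3.33 for Pfkm and -7.15 to 4.16 for Pklr under Ang II in miR-214-/-, from -0.129 to 0.0718 (WT), -0.0613 to 0.107 (miR-214-/-) and -0.11 to 0.091 (between sham groups) for Aldoc, and from -0.303 to 0.945 for Ldhb between sham groups. Low counts of Vegfa and Aldoc limit their precision.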
